A study of Mus musculus with 8 samples.

Results

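The serum amyloid A genes (Saa1, Saa2, Saa3 and Saa4), the orosomucoid genes (Orm1, Orm2 and Orm3), lipocalin 2 (Lcn2), haptoglobin (Hp) and amyloid P component (Apcs) were followed in livers of congenic mice. These 10 genes were looked up by name among the array's probes, through the accession each probe carries and the RefSeq symbol of that accession. Of the 10, 9 were found, among 26698 genes with a symbol on the array, and Orm2 matched no probe by this route. They were carried by 11 probes, because Orm3 had 3. There were 8 liver samples of male mice, 1 array each, of 2 genotypes. NB stands for Ltg/NZO.5.3N/B (4 arrays, numbered 2, 3, 5 and 8 in the labels) and NN for Ltg/NZO.5.3N/N (4 arrays, numbered 1, 4, 6 and 7). Both were bred from New Zealand Obese mice (NZO/HiBomDife), a polygenic model of obesity and fatty liver, crossed with C57BL/6J, and both ate a diet with 45% fat until 5 weeks of age, so no animals on another diet were compared. The genotypes differ in a congenic segment (Ltg/NZO.5.3 in the labels), known as a liver triglyceride locus on chromosome 18; the labels give neither the meaning of the letters N and B nor the zygosity. Nor do they say outright that every array stands for its own animal, and the p-values therefore speak only of the spread among these 8 samples.

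The products of these genes are plasma proteins of the acute phase response, the change in liver secretion that follows infection or tissue injury. Macrophage cytokines such as interleukin-6 and interleukin-1 act on hepatocytes, where STAT3, NF-kappaB and the C/EBP proteins switch on transcription of Saa, Orm, Hp and related genes, while albumin, transthyretin and others fall. In the mouse, Apcs takes the place that C-reactive protein has in people as the strongly induced pentraxin. Saa1 and Saa2 encode apolipoproteins of high density lipoprotein that are inducible in liver; Saa3 is also made by macrophages and fat, and Saa4 is the constitutive form.

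All members lie outside the chromosome that carries the congenic segment: the Saa genes on chromosome 7, Orm1 and Orm3 on chromosome 4, Lcn2 on chromosome 2, Hp on chromosome 8 and Apcs on chromosome 1. The sequences upstream of 8 of the 10 genes were taken from RefSeq (GRCm38.p6), as the 250 bases before the annotated start. Of these, 4 are printed below because their genes have the widest range between arrays (Saa1, Saa2 and Saa3) or the most probes (Orm3), 5′ to 3′ on the strand of the gene, with the bases that match the C/EBP motif TTGCNNAA on either strand in capitals.
Saa1, chr7:46742981-46743230, minus strand: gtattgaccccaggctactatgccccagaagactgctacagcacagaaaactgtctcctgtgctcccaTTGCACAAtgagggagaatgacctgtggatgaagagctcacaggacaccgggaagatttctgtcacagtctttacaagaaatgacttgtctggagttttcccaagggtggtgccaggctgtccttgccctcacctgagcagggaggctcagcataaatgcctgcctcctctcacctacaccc
Saa2, chr7:46751583-46751832, plus strand: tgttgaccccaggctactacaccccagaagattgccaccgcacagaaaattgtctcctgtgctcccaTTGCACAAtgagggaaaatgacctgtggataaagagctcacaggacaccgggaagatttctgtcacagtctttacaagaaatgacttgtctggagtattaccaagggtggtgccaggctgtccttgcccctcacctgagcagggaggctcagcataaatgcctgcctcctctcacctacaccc
Saa3, chr7:46715677-46715926, minus strand: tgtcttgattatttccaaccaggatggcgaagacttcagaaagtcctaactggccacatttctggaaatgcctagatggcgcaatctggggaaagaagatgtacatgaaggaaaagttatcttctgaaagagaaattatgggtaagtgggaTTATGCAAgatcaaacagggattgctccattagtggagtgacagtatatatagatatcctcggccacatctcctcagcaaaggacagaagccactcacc
Orm3, chr4:63355908-63356157, plus strand: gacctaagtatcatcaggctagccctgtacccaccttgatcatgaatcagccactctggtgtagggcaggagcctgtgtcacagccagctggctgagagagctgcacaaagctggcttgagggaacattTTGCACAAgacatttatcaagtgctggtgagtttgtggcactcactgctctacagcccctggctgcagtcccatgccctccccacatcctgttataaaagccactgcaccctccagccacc

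The C/EBP motif was present in 7 of the 8 member windows (Saa1, Saa2, Saa3, Saa4, Orm2, Orm3 and Lcn2), and in 9.56% of 32851 RefSeq windows of the same length. In Saa1 it lay 182 to 175 bases before the start and in Saa2 183 to 176 bases before it. In Orm3 it lay 121 to 114 bases before the start, and in Saa3 99 to 92 bases before it. The windows are not independent, since those of Saa1 and Saa2 are identical over 94.8% of their alignment and those of Orm2 and Orm3 over 85.9%. The STAT motif TTCNNNGAA, searched on both strands, was found in 1 of the 8 windows, that of Apcs, against 7.02% of all windows. An NF-kappaB motif was found in 0 of the 8 windows, against 7.25% of all. A match describes the letters only and is not evidence of binding.

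The array reads each gene through 1 short probe, except Orm3. The first 30 bases of the probes of the closest relatives are printed to show that these differ in sequence, in lower case, as the files list them.
Saa1 NM_009117: ctctctggggaaacattgtatatctctcat
Saa2 NM_011314: tgagggtggggtctgggcttcctatctagg
Orm1 NM_008768: ccaggcatgaactcagctctctgaactccg
Orm3 NM_013623: catcctgtgcactttgattctgtctctgta
Orm3 XM_006537666: gtcaccaggcctgtccctgcaattcttcta
Orm3 XM_006537667: gataatgcctgccctttgggggattctgct
The longest run of bases that any member probe shared with another member's probe was 7 or 8 bases. Whether a probe also hybridises to the transcript of a near-identical relative (Saa1 and Saa2, or Orm1, Orm2 and Orm3) was not tested.

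Signals are given as the log2 processed signal minus the 75th percentile of the same array, called relative signal below, so that 0 is the brightness of the probe at that percentile and 1 unit is a doubling. It compares arrays for 1 probe and not probes with each other. Member probes were all well above background on 8 of 8 arrays. Over the whole array, 74.4% to 79.6% of probes were well above background, the 75th percentile lay between 445 and 584.4 intensity units, and all arrays lay on 1 slide. Each of the 10 hepatocyte markers looked at (the 2 brightest being Serpina1a and Cyp2e1) passed the filter on dim probes. Their summed signal, in multiples of the 75th percentile, ranged from 1276 to 1374 in NB and from 1332 to 1391 in NN. Such a sum gives most weight to the brightest probes of a list and does not measure cell content.

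Against a probe-wise limma test between the genotypes, 0 of the 11 member probes were called at an adjusted p under 0.05, and 0 had an unadjusted p under 0.05; the adjusted p was 1.0 for each. The same test called 0.00854% of the 46814 probes kept, 4 in number and all higher in NB. Of the 46814, 813 had an unadjusted p under 0.05. All 9 genes, each by its brightest probe, had a positive log2 fold change of NB over NN, with a median of 0.63, where the median over all kept probes was −0.01. The values of the genotypes overlapped for all 11 member probes, and 1.1% of all probes with 8 values had no overlap. The members varied widely between arrays of 1 genotype, and did so together. In 7 of the 9 genes the 3 lowest arrays were NB 2, NN 1 and NN 4, and NB 3 was the highest array in 8 of 9.

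**Figure D1:**
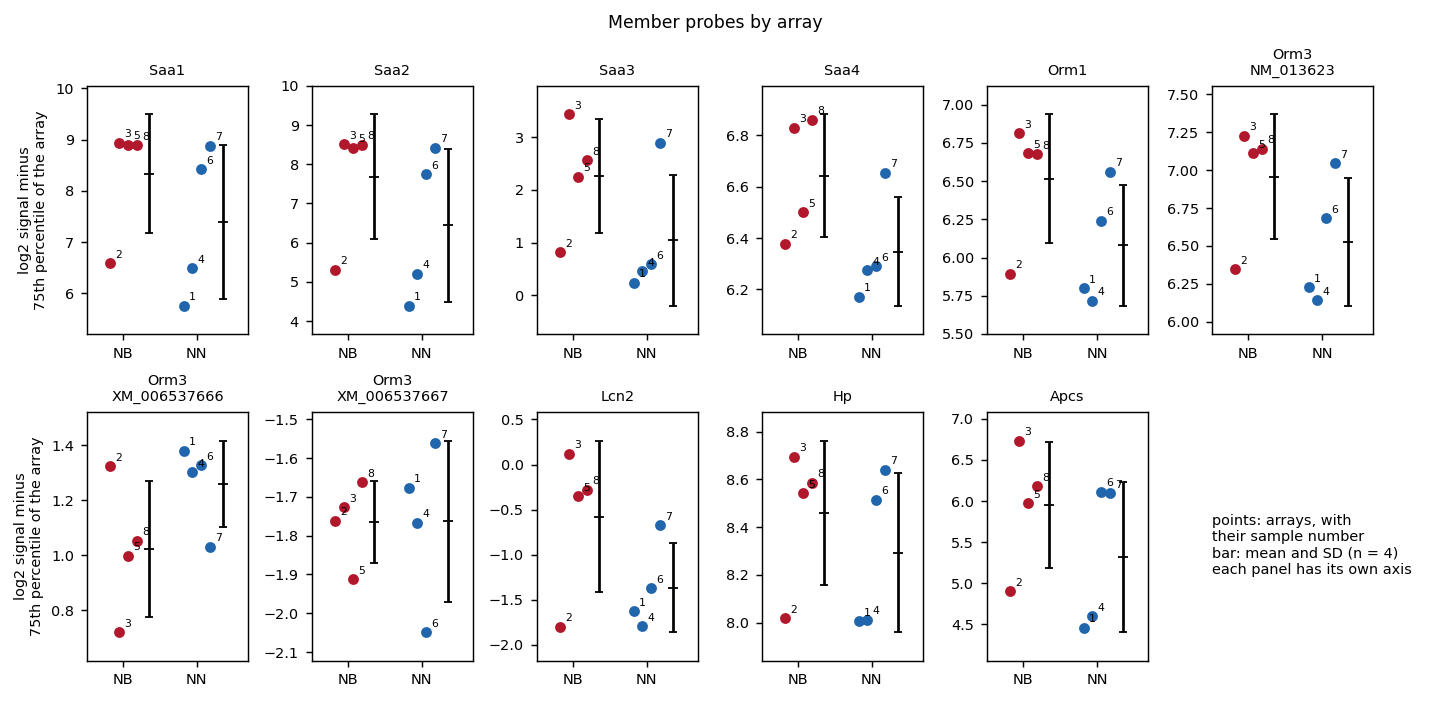
Relative signal (log2 signal minus the 75th percentile of the array, vertical axes, 1 per panel) of the 11 member probes on the 4 NB and 4 NN arrays, each point labelled with the sample number; black bars are the mean and SD. NB 2 lies with NN 1 and NN 4 at the bottom for Saa1, Saa2, Orm1, Orm3 NM_013623, Lcn2, Hp and Apcs, and the genotypes overlap in every panel.

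Saa1 had relative signals of 6.59, 8.94, 8.90 and 8.90 on NB 2, NB 3, NB 5 and NB 8, against 5.76, 6.49, 8.43 and 8.88 on NN 1, NN 4, NN 6 and NN 7. Of the NB arrays 3 were nearly equal and NB 2 lay below them, while the NN arrays spread over 3.13 log2 units; the genotypes overlapped. The mean was 8.33 ± 1.16 in NB and 7.39 ± 1.50 in NN (SD, n = 4 each), a log2 fold change of 0.95 (SE 0.79, 95% confidence interval −0.85 to 2.74). Between its lowest and highest array Saa1 differed 9.11-fold.

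Saa2, the close relative of Saa1, gave 5.31, 8.51, 8.42 and 8.50 on the NB arrays in the same order, against 4.39, 5.21, 7.74 and 8.42 on the NN arrays. NB 2 again lay with NN 1 and NN 4, so that 5 arrays were high and 3 low. Its log2 fold change was 1.25 (SE 1.04, 95% confidence interval −1.11 to 3.61), with means of 7.69 ± 1.58 in NB and 6.44 ± 1.94 in NN (SD, n = 4 each). At 17.4-fold, Saa2 had the widest range of the 11 member probes over the 8 arrays.

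Saa3 stood at 0.82, 3.43, 2.25 and 2.57 on the NB arrays, against 0.24, 0.45, 0.59 and 2.89 on the NN arrays. NN 7 alone among the NN arrays reached the level of the 3 higher NB arrays, and unlike Saa1 and Saa2, Saa3 was low on NN 6. The means were 2.27 ± 1.09 in NB and 1.04 ± 1.24 in NN (SD, n = 4 each), and the log2 fold change was 1.22 (SE 0.69). Saa4, the constitutive member, varied least of the Saa genes. It gave 6.38, 6.83, 6.50 and 6.86 on the NB arrays, against 6.17, 6.28, 6.29 and 6.65 on the NN arrays, a range of 1.61-fold over the 8. Its log2 fold change was 0.29 (SE 0.15, 95% confidence interval −0.04 to 0.63, unadjusted p = 0.0751), and NN 7 lay above both NB 2 and NB 5.

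Orm1 and Orm3 encode orosomucoid (alpha-1-acid glycoprotein), a lipocalin-fold plasma carrier of drugs and lipids. Orm1 had relative signals of 5.89, 6.81, 6.68 and 6.68 on the NB arrays, against 5.80, 5.72, 6.24 and 6.56 on the NN arrays. NB 2 again stood with NN 1 and NN 4, and NN 7 fell just below the 3 higher NB arrays. The log2 fold change of Orm1 was 0.44 (SE 0.25), with means of 6.52 ± 0.42 in NB and 6.08 ± 0.40 in NN (SD, n = 4 each).

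The brightest probe of Orm3, designed to NM_013623, followed the same course. It gave 6.35, 7.23, 7.11 and 7.14 on the NB arrays, against 6.23, 6.14, 6.68 and 7.05 on the NN arrays, with a log2 fold change of 0.43 (SE 0.25). This probe is printed 5 times on the array, and the SD between its spots on 1 array was 0.03 to 0.05 log2 units, below its SD of 0.41 between the NB arrays and 0.42 between the NN arrays. The other two Orm3 probes, designed to predicted transcript models, did not follow it. XM_006537666 gave 1.32, 0.72, 1.00 and 1.05 on the NB arrays, against 1.38, 1.30, 1.33 and 1.03 on the NN arrays, so that it was lowest on NB 3, where NM_013623 was highest. Its log2 fold change was −0.24 (SE 0.14), and Pearson's r between it and NM_013623 over the 8 arrays was −0.87. XM_006537667 differed between the genotypes by −0.0024 log2 units (SE 0.11), and its r with NM_013623 was 0.08. Hence only 1 of the 3 Orm3 probes carries the pattern described here.

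Lcn2 encodes an iron-siderophore-binding lipocalin that withholds iron from bacteria and is made by neutrophils as well as by stressed hepatocytes. Its relative signal was −1.80, 0.12, −0.35 and −0.28 on the NB arrays, against −1.63, −1.79, −1.37 and −0.67 on the NN arrays. Apart from NB 2, which was the lowest of the 8, the NB arrays lay above the 4 NN arrays. The log2 fold change was 0.79 (SE 0.41, 95% confidence interval −0.14 to 1.71, unadjusted p = 0.0862), with means of −0.58 ± 0.84 in NB and −1.36 ± 0.49 in NN (SD, n = 4 each).

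Hp encodes haptoglobin, which binds free haemoglobin. It varied little, by 1.61-fold, yet split the arrays the most cleanly: 8.02, 8.69, 8.54 and 8.59 on the NB arrays, against 8.00, 8.01, 8.51 and 8.64 on the NN arrays. NB 2, NN 1 and NN 4 lay within 0.02 log2 units of each other and the 5 other arrays between 8.51 and 8.69, and the log2 fold change was 0.17 (SE 0.20). Apcs, the pentraxin serum amyloid P, gave 4.90, 6.73, 5.97 and 6.18 on the NB arrays, against 4.46, 4.60, 6.11 and 6.09 on the NN arrays. The same 3 arrays were low and NB 3 was highest, with a log2 fold change of 0.63 (SE 0.50, 95% confidence interval −0.50 to 1.76).

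**Figure D2:**
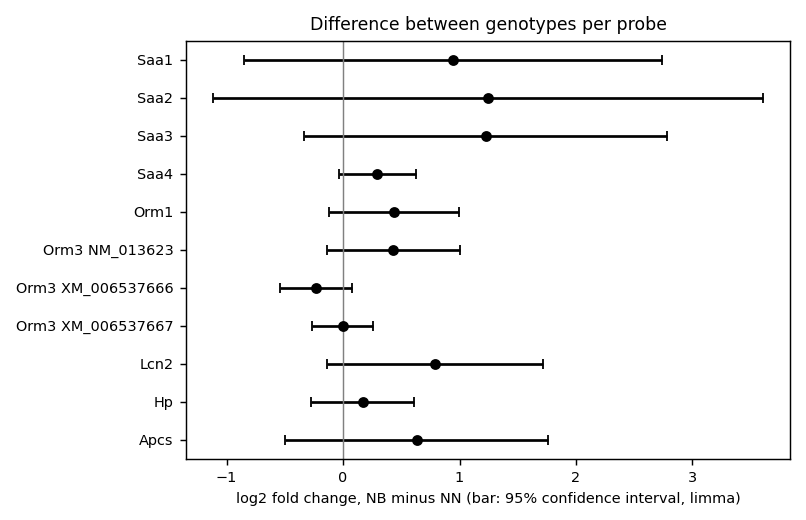
Log2 fold change of NB over NN (horizontal axis) of each member probe with its 95% confidence interval from limma, 1 row per probe. All 11 intervals include 0, and the widest, that of Saa2, runs from −1.11 to 3.61.

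The width of these intervals follows from the spread between arrays of the same genotype. The within-genotype SD was 1.77 log2 units for Saa2, 1.34 for Saa1, 1.17 for Saa3, 0.84 for Apcs and 0.69 for Lcn2, where the median over all kept probes was 0.17. Among all kept probes these stand at percentiles 99.98, 99.93, 99.84, 99.4 and 98.6. Orm3 NM_013623 and Orm1 lay at percentiles 91.8 and 91.4, Hp at 83.3 and Saa4 at 67.2. The 5 genes with the widest spread are thus the inducible Saa genes, Apcs and Lcn2.

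Leaving out NB 2, the array that separates from the rest of its genotype, raised the log2 fold change of Saa1 to 1.53. That of Saa2 rose to 2.04 and the median over the 9 genes to 0.98, still with 0 member probes called. The smallest unadjusted member p was then 0.00237 (limma). NB 2 is set apart here by its low member values, so this p is not a test of the genotypes. The same omission raised the number of all probes with an unadjusted p under 0.05 from 813 to 1601. Without NN 7 the log2 fold changes were 1.44 for Saa1 and 1.91 for Saa2, with a median of 0.89. The lowest values came without NN 1, at 0.40 for Saa1 and 0.56 for Saa2, with a median of 0.34 over the 9 genes. Without NN 4 they were 0.64 for Saa1 and 0.84 for Saa2, and without NB 3 they were 0.74 for Saa1 and 0.97 for Saa2, with a median of 0.37. In each slide column an NB array lay beside an NN array. The NB array was the higher of the pair in 4 of 4 columns for Saa1, Saa2, Saa4, Orm1 and Orm3 NM_013623. It was the higher in 3 of 4 for Saa3, Lcn2, Hp and Apcs, in 1 for Orm3 XM_006537666 and in 2 for Orm3 XM_006537667. The share over all probes was not counted, and members that vary together are not separate results. With slide column as a block, Saa4 had the smallest unadjusted p of the members, 0.0198 (limma adjusted p = 1.0). This block lowered the SE of every member probe, from 0.79 to 0.39 for Saa1 and from 1.04 to 0.52 for Saa2. Their unadjusted limma p was then 0.0542 and 0.0546. Over the whole array, 1321 of 46330 probes had an unadjusted p under 0.05 with this block, against 813 of 46814 without it. The part of slide column in the members' spread was not tested. For Saa1 the 4 column differences were 0.84, 2.46, 0.47 and 0.01, and within the 2 slide rows its log2 fold change was 0.29 and 1.60.

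**Figure D3:**
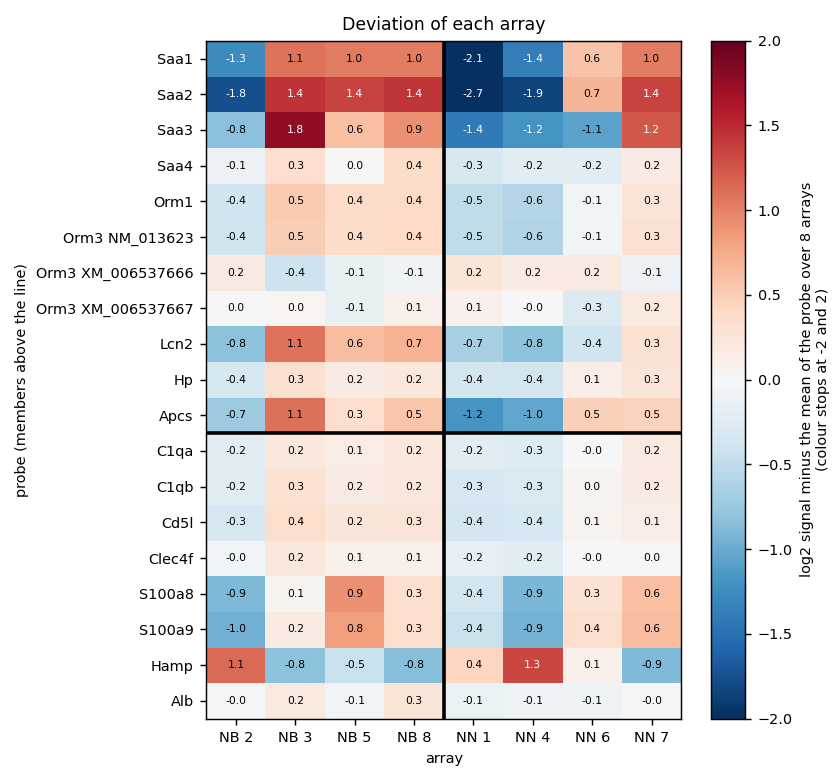
Deviation of each array (columns, NB left of NN) from the probe's mean over 8 arrays, in log2 units (colour and printed value), for the 11 member probes above the line and 8 other genes below it. Columns NB 2, NN 1 and NN 4 are below 0 for the members other than the 2 lesser Orm3 probes and for C1qa, C1qb and Cd5l, and above 0 for Hamp.

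The members varied together from array to array. Each gene was scaled to a mean of 0 and an SD of 1 over the 8 arrays and averaged into a member score, which was −0.88, 1.15, 0.61 and 0.85 on NB 2, NB 3, NB 5 and NB 8, against −1.24, −1.11, −0.07 and 0.69 on NN 1, NN 4, NN 6 and NN 7. High and low scores occur in both genotypes. The 3 arrays with the lowest scores had the 3 highest 75th percentiles (584.4 on NB 2, 537.9 on NN 1 and 515.7 on NN 4, against 445 to 513.5 on the others) and the 3 highest shares of probes well above background (79.6%, 79.2% and 78.1%), and they lay in the first 2 of 4 slide columns, as did NB 3, which had the highest score. The highest percentile was 1.31 times the lowest, 0.39 on the log2 scale, and the part of these differences in array brightness in the pattern was not tested.

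Pairs of members were compared by correlation over the 8 arrays, 36 pairs in all. For Saa1, Saa2 and Hp the arrays fell into 2 clusters, with a gap of 0.58, 0.59 and 0.72 of their range between the 3 low and the 5 high arrays, and neither cluster holds 6 arrays, so no correlation is given for the 21 pairs with one of these genes. This criterion, a gap wider than the rest of the range together, was chosen after the values were seen. Apcs and Saa3 came close to it, with largest gaps of 0.47 and 0.45 of their range, and were kept. For Apcs this gap parted the same 3 low arrays from the 5 others, so pairs with Apcs or Saa3 are not clearly graded. The criterion was applied to pairs of members only. The member score includes Saa1, Saa2 and Hp, and the genes compared with it below were not screened for such gaps. Fga, for example, lay at 7.65 to 7.67 on NB 2, NN 1 and NN 4 and at 8.11 to 8.34 on the other arrays. Among the other 6 genes (Saa3, Saa4, Orm1, Orm3, Lcn2 and Apcs), Pearson's r lay between 0.79 and 0.999 in the 15 pairs, and Spearman's rho between 0.76 and 0.98. All 15 passed an exact two-sided permutation test, with Benjamini-Hochberg adjusted p up to 0.0285 for Pearson's r and up to 0.0368 for Spearman's rho, adjusted over the 36 pairs. The share of pairs of other genes that would pass on these arrays was not counted. The count therefore does not show that such covariation is particular to the members. With the genotype means removed and permutation within genotype, r lay between 0.76 and 0.998 (exact permutation test, adjusted p up to 0.0208), so the members also varied together within genotypes. Without the 2 arrays farthest from the median of the first gene, r lay between 0.69 and 0.997, and 10 of the 15 pairs had an exact permutation p under 0.05.

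Among the 15 pairs, the closest was Orm1 with Orm3 (r = 0.999, rho = 0.976, exact permutation p = 4.96e-05 for r and 0.000397 for rho, adjusted p = 0.00134 for r and 0.00286 for rho), whose genes are close relatives on chromosome 4. Orm1 with Lcn2 reached r = 0.969 and rho = 0.905 (exact permutation p = 0.000744 and 0.00456, adjusted p = 0.00288 and 0.00865), and Saa3 with Saa4 r = 0.937 and rho = 0.929 (exact permutation p = 0.00124 and 0.00223, adjusted p = 0.00288 and 0.00731). Saa4 with Apcs had the lowest r of the 15, 0.795, with a rho of 0.833 (exact permutation p = 0.0264 and 0.0154, adjusted p = 0.0285 and 0.0179). Without NB 3 and NB 8 its r was 0.694 (exact permutation p = 0.143). All values come from the same 8 arrays and share their scaling.

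**Figure D4:**
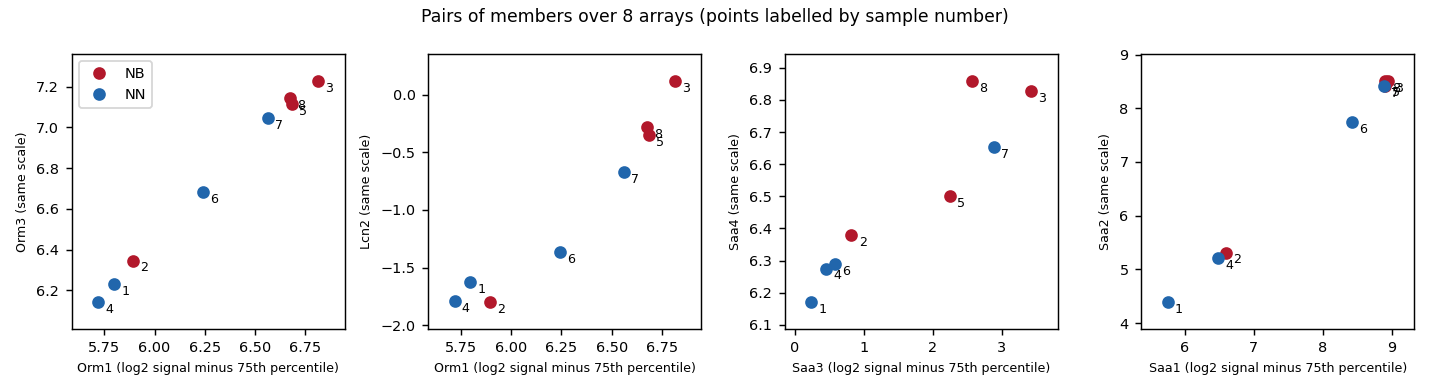
Relative signal of 4 pairs of members over the 8 arrays (NB red, NN blue, points labelled with the sample number; both axes in log2 units). Orm1 and Orm3 lie on a line through both genotypes, while Saa1 and Saa2 fall into 3 low arrays (NB 2, NN 1 and NN 4) and 5 high ones.

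The genes of the array whose pattern was most like the member score, by Pearson's r over the 8 arrays among 23635 named genes with 8 values, were Mctp1 (r = 0.994), C1qb (0.994), Tmem176a (0.992), Ren2 (0.991), Fam185a (0.990), Nphs1 (0.990), C1qa (0.988) and Dach2 (0.988). C1qa and C1qb encode chains of complement C1q, made mainly by macrophages, and Ren2 is the second renin gene of some mouse strains. C1qb had relative signals of 4.13, 4.68, 4.54 and 4.58 on the NB arrays, against 4.03, 4.07, 4.42 and 4.53 on the NN arrays. Mctp1 gave −2.72, 0.93, 0.29 and 0.71 on the NB arrays, against −3.03, −2.64, −1.18 and 0.15 on the NN arrays, a range of 3.95 log2 units. None of the 8 was called between the genotypes (limma adjusted p = 1.0 for each), and with this many genes some lie close to any pattern over 8 arrays: 4.26% of named genes had an r above 0.8 and 2.71% one below −0.8.

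The wider pathway was read from 8 lists of 104 genes in all, of which 100 were kept, and 0 were called between the genotypes, against 0.00854% of all probes. At an unadjusted p under 0.05 there was 1 of the 100, against 813 of the 46814 probes kept. This was Fpr2, a formyl peptide receptor that binds serum amyloid A. It gave −0.19, −0.04, −0.37 and −0.26 on the NB arrays, against −0.55, −0.60, −0.31 and −0.39 on the NN arrays (log2 fold change 0.25, SE 0.10, unadjusted p = 0.0397, limma adjusted p = 1.0), and the genotypes overlapped. Of the 25 other acute phase genes that rise in the response, 19 had a positive log2 fold change, with a median of 0.14, where 47.1% of all named genes had a positive one and their median was −0.01. Il1rn, the interleukin-1 receptor antagonist, had the smallest p of this list (log2 fold change 0.47, SE 0.23, unadjusted p = 0.073, limma adjusted p = 1.0), followed by Cp, ceruloplasmin (0.17, SE 0.10, unadjusted p = 0.133, limma adjusted p = 1.0).

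The acute phase genes followed the member score in part. Of the 25, 11 had an r with the score above 0.8 and 1 below −0.8, with a median r of 0.73, against −0.06 for all named genes. Those above 0.8 included the haemopexin gene Hpx, the fibrinogen chain gene Fga, the inter-alpha-trypsin inhibitor genes Itih3 and Itih4, and Serpina3n, an antiprotease. Serpina3n stood at 6.50, 7.23, 7.18 and 7.31 on the NB arrays, against 6.53, 6.32, 6.80 and 7.22 on the NN arrays, again lowest on NB 2, NN 1 and NN 4. C-reactive protein (Crp), which is only weakly induced in mice, stayed between 6.01 and 6.17 in NB and between 6.04 and 6.19 in NN (r = 0.09). The exception with an r under −0.8 was Hamp, the iron hormone hepcidin, at 5.97, 4.02, 4.39 and 3.99 on the NB arrays, against 5.27, 6.17, 4.94 and 3.96 on the NN arrays (r = −0.92). Hamp was thus high on NB 2 and NN 4, where the members were low. These genes, other than Il1rn and Cp, were named after their values were seen.

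Of the 11 measured genes known to fall in the acute phase response, 3 had a positive log2 fold change (median −0.08), and their median r with the score was 0.30. Albumin (Alb) had a log2 fold change of 0.18 (SE 0.09, unadjusted p = 0.0898, limma adjusted p = 1.0) and Serpina6, the corticosteroid carrier of plasma, one of −0.24 (SE 0.14, unadjusted p = 0.131, limma adjusted p = 1.0). Cytokines and their receptors had lower medians of r than the 25 acute phase genes above. Of 11 inducing cytokines, 9 were kept, with a median r of −0.23, and Il6 and Il11 were well above background on 0 of 8 arrays. Il22 and Clcf1 had the smallest p of these, with log2 fold changes of −0.19 (SE 0.11, unadjusted p = 0.12) and 0.27 (SE 0.23, unadjusted p = 0.274). Both were dim, with mean relative signals of −4.56 in NB and −4.37 in NN for Il22, and −5.03 and −5.30 for Clcf1. The 13 cytokine receptors had a median r of 0.33 and a median log2 fold change of 0.06, with Il1r1 (0.24, SE 0.17, unadjusted p = 0.184) and Il10rb (0.15, SE 0.11, unadjusted p = 0.192) having the smallest p.

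Of 19 signalling and transcription factor genes, 1 had an r above 0.8. It was Myd88, the adaptor of Toll-like and interleukin-1 receptors (r = 0.90), whose log2 fold change was 0.10 (SE 0.10, unadjusted p = 0.332); Irak1, the kinase next to it, had one of 0.09 (SE 0.09, unadjusted p = 0.341). Stat3, which carries the interleukin-6 signal, gave 2.13, 2.60, 2.55 and 2.61 on the NB arrays, against 2.26, 2.13, 2.79 and 2.55 on the NN arrays (r = 0.78, named after its values were seen). The 11 receptors of the products had a median r of 0.06, and after Fpr2 the smallest p was that of Mc4r, a melanocortin receptor that binds lipocalin 2 (log2 fold change 0.17, SE 0.11, unadjusted p = 0.159). Mc4r was dim, with mean relative signals of −3.72 in NB and −3.89 in NN. Among 10 other genes of the lipocalin and fatty acid binding family, 2 had an r above 0.8 and 1 below −0.8; Rbp4 and C8g had the smallest p, with log2 fold changes of −0.08 (SE 0.07, unadjusted p = 0.24) and −0.11 (SE 0.09, unadjusted p = 0.274). The 4 other pentraxins measured had a median r of −0.40, with log2 fold changes of −0.21 (SE 0.13, unadjusted p = 0.153) for Ptx3 and −0.52 (SE 0.52, unadjusted p = 0.344) for Nptx1. Ptx3 and Nptx1 were dim too, with mean relative signals of −5.00 and −4.83 in NB and −4.79 and −4.31 in NN. All the genes tested in this and the preceding paragraph had a limma adjusted p of 1.0.

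**Figure D5:**
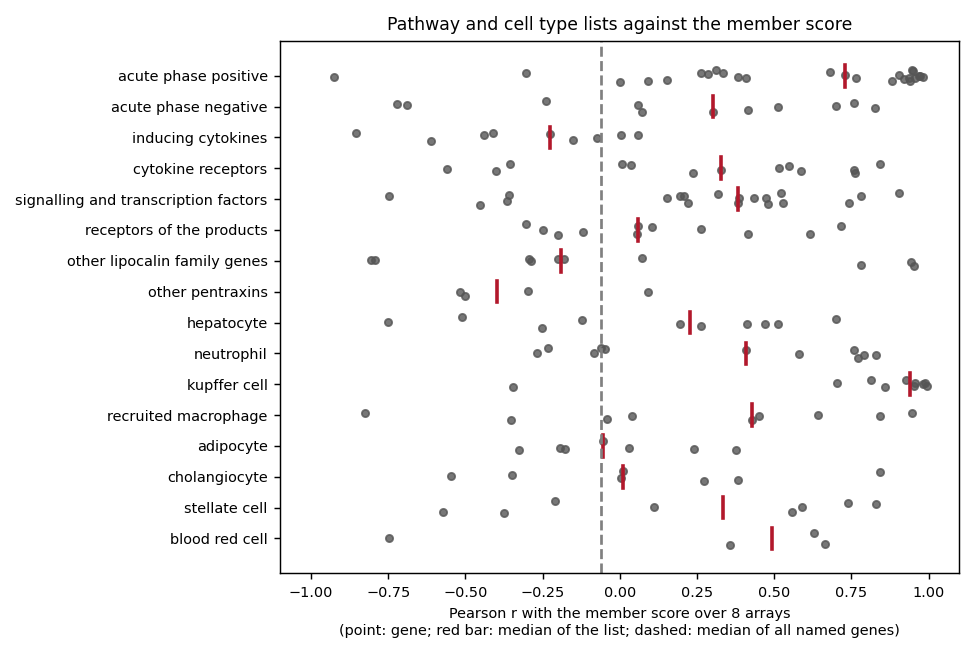
Pearson's r of each kept list gene with the member score over 8 arrays (horizontal axis), by list, with the list's median in red and the median of all named genes dashed at −0.06. The Kupffer cell markers (median 0.94) and the positive acute phase genes (median 0.73) lie farthest to the right.

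Markers of other cell types were read beside the members, since fewer cells of a type and less RNA per cell cannot be told apart in whole liver. Most Kupffer cell markers, of the resident liver macrophages, moved with the members. Of 10, 8 had an r above 0.8, against 4.26% of all named genes, and the median was 0.94. A positive log2 fold change was found in 9 of 10, against 47.1% of all named genes. The markers not above 0.8, named after their values were seen, were C1qc (r = 0.70) and Timd4 (r = −0.35, log2 fold change −0.07). The summed signal of the 10 markers, in multiples of the 75th percentile, was 74.2, 102.6, 97.0 and 97.7 on NB 2, NB 3, NB 5 and NB 8, against 71.7, 70.8, 88.3 and 94.2 on NN 1, NN 4, NN 6 and NN 7. The sums were lowest on the same 3 arrays as the members, and the part of Kupffer cell content in the members' variation was not tested. All 10 markers were kept by the filter, and the 2 brightest, C1qa and C1qb, are among the genes most like the score named above.

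Neutrophil markers, relevant because neutrophils store lipocalin 2, moved less with the score. Of 11 measured, 1 had an r above 0.8, and the median was 0.41. The summed signal, weighted towards the brightest probes (Csf3r and Elane), ranged from 25.1 to 32.2 in NB and from 23.7 to 31.4 in NN. S100a9, the 1 above 0.8 and named for that, gave 0.73, 1.87, 2.53 and 2.04 on the NB arrays, against 1.25, 0.75, 2.04 and 2.31 on the NN arrays. Of the other neutrophil markers, also named after their values were seen, S100a8 (r = 0.79), Camp (0.77), Mmp8 (0.76) and Ngp (0.58) lay below that value but on the same side, while the 2 brightest, Csf3r and Elane, had an r of −0.05 and −0.27. Their part in the Lcn2 values was not tested. Among the markers of recruited macrophages, 2 of 9 had an r above 0.8 and 1 below −0.8. Their summed signals were 84.4 to 129 in NB and 88.2 to 124 in NN. This sum is weighted mostly towards the Trem2 probe, with mean relative signals of 6.09 in NB and 6.25 in NN. The next brightest, Csf1r, had means of 4.35 in NB and 3.89 in NN. Trem2 had an r of −0.35 and Csf1r one of 0.45. The medians of r were 0.23 for hepatocyte, 0.34 for stellate cell, 0.01 for cholangiocyte, −0.05 for adipocyte and 0.49 for red blood cell markers.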

How the data were processed

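Liver RNA labelled with Cy3 was hybridised to a 1-colour custom Agilent array. Per the file headers, the scans were read with Agilent Feature Extraction 11.5.1.1 (9.1 per the submitters' processing notes), and the deposited processed signal is an intensity after the software's background handling, not normalized between arrays; the flags for background and outliers are the software's own. The authors' value table holds linear intensity values, 59448 rows, with the same sorted values in each column (median 84.2), and served as an alternative. The build named in the headers is mm9, but probes are listed as unmapped.

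Outlier spots were left out, spots of 1 probe averaged, and the log2 signal taken minus each array's 75th percentile. Of 60273 probes, 46814 were tested: those well above background on at least 4 of 8 arrays with enough values in both genotypes. Accessions were matched to RefSeq (GRCm38.p6), naming 31064 probes. Each probe was tested with limma 3.58.1 in R 4.3.3 (lmFit, eBayes, two-sided, NB minus NN, Benjamini-Hochberg over all 46814, threshold 0.05). A gene with several probes was represented by the brightest. Correlations were tested by exact permutation. The steps were tested on simulated data. Alternatives covered background correction (normexp, offset 50), scaling, filters, probe summary, array weights, variance model, slide row and column, and each array left out.

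The members, gene lists, motifs and tests were chosen with earlier results of these data known. Genes named beyond the members were, of each pathway list, any called or the 2 with the smallest p, of the hepatocyte, Kupffer cell, neutrophil and recruited macrophage markers the 2 brightest, and the 8 most like the member score; others are marked as named after their values were seen. The number of arrays limits the precision.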

Additional observations from a re-analysis of the deposited data

Results flagged for a closer look

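In groups of 4 arrays, a single array lay far from the other 3 (a gap above Dixon's 95% critical value) in 8 of 104 sets of values examined, 7.69%, where chance flags about 5%. Of these, 5 concerned member probes. NB 2 stood below the other NB arrays in 4 of them: for Saa1 at 6.59, where the others lay between 8.90 and 8.94; for Saa2 at 5.31, where the others lay between 8.42 and 8.51; for Orm1 at 5.89, against 6.68 to 6.81; and for Orm3 NM_013623 at 6.35, against 7.11 to 7.23. For Saa3 it was NN 7 that stood above the other NN arrays, at 2.89, where these lay between 0.24 and 0.59. NB 2 was also apart for C1qa, at 4.25 with the others between 4.61 and 4.68, and for the cytokine gene Il22, at −4.35 with the others between −4.64 and −4.61. NN 1 was apart for the neuronal pentraxin gene Nptx1, at −2.57 with the other NN arrays between −5.10 and −4.69. Members that move together are not separate flags, and the source of the deviation of NB 2 was not tested.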

How the results depend on the processing

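No member probe was called under the main setting or under any of 13 other settings and 8 single arrays left out, and no pathway gene was. The log2 fold changes of 10 of the 11 member probes kept their sign throughout. The exception was Orm3 XM_006537667, near 0, which changed sign to 0.000893 with quantile normalization, 0.00501 with median scaling, 0.00315 with the percentile of probes above background on all arrays and 0.00448 in the authors' value table, and ranged from −0.0975 to 0.0648 with single arrays left out; the cause was not tested. The median over the 9 genes was 0.63 to 0.76 under the other settings and 0.34 to 0.98 with single arrays left out. Averaging the 3 Orm3 probes took the log2 fold change of Orm3 to 0.06, since the other two probes differ from NM_013623. Of the 15 correlated pairs, 12 passed without NB 3 and 12 to 15 with single arrays left out; all 15 passed under the 5 other settings tried. No paired analysis was possible because no replicate number of the labels, 1 to 8, occurs in both genotypes, as far as pairing by number goes; pairing arrays by slide column, run as a block, called no member. All member probes were well above background, so signal over background does not limit them.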

Other observations

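Some named genes ran opposite to the member score over the 8 arrays and were looked for after the data were seen. Sult5a1, a sulfotransferase gene, had relative signals of 4.10, 3.02, 3.26 and 3.21 on NB 2, NB 3, NB 5 and NB 8, against 4.08, 4.03, 3.49 and 3.31 on NN 1, NN 4, NN 6 and NN 7 (r = −0.986). Ugt2b1, a glucuronosyltransferase gene of drug and steroid metabolism, gave 6.99, 6.02, 6.37 and 6.37 on the NB arrays, against 7.01, 6.87, 6.45 and 6.25 on the NN arrays (r = −0.963). Both were highest on NB 2, NN 1 and NN 4, where the members were low, and neither was called between the genotypes (limma adjusted p = 1.0). The metallothionein genes Mt1 and Mt2, also listed with the acute phase, followed another course: Mt2 gave 2.29, 5.00, 4.33 and 4.49 on the NB arrays, against 4.49, 3.62, 1.31 and 2.59 on the NN arrays, with an r of 0.26 with the score. Csf1r, the receptor of macrophage colony stimulating factor, was a list gene whose genotypes did not overlap, as in 1.1% of all probes, at 4.38, 4.35, 4.32 and 4.33 on the NB arrays, against 3.99, 3.82, 3.77 and 3.99 on the NN arrays (log2 fold change 0.46, SE 0.08, unadjusted p = 0.000286), but it was not called (limma adjusted p = 1.0).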
